A study of Homo sapiens with 12 samples.

Results

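The 34 genes described here encode the proteins of tight junctions and desmosomes, the cytoplasmic catenins that anchor cadherins, the adhesion molecules EPCAM and CDH3, and the proteins that set apical and basal polarity in epithelial cells. They were taken from the deposited count table by gene symbol, and each of the 34 was found once among its 23368 distinct symbols. The libraries came from 2 established human breast cancer cell lines, MDA-MB-231 and T47D, both derived from pleural effusions of mammary adenocarcinoma and both labelled as epithelial. MDA-MB-231 lacks the estrogen receptor, and T47D is a luminal line that has it. All cells were encapsulated for 3 days in poly(ethylene glycol) hydrogels that cells can degrade, and were released with collagenase. The gels carried either GFOGER, a peptide that mimics collagen and binds integrins, or IKVAV, a peptide that mimics laminin. The 4 conditions were MDA-MB-231 with GFOGER (3 libraries), MDA-MB-231 with IKVAV (2 libraries, with replicate 3 not analysed here), T47D with GFOGER (3 libraries) and T47D with IKVAV (3 libraries). Each library was a stranded poly(A) library made from RNA of 3 gels combined. Each cell type was a single line, so a difference between the lines cannot be told apart from a difference between breast cancer subtypes. The labels do not say that replicates were separate cultures, so p-values measure the spread between these libraries, which may be technical.

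Levels are given as CPM values (cpm, a gene's count scaled to a common library total) after normalization by the trimmed mean of M-values (TMM), and they are divided by the length of the gene model in kilobases wherever genes are compared with each other. The 11 libraries held 14338238 to 18452145 counts over genes, at which 3 counts corresponded to 0.163 to 0.209 cpm. The cell line labels were checked on marker genes. All 10 luminal markers were lower and all 6 mesenchymal markers were higher in MDA-MB-231 than in T47D. The marker lists were chosen with earlier results of these data known, so this is not an independent check. The epithelial label was checked on CDH1 (E-cadherin), which lay at 996 to 1050 cpm in T47D and at 2.29 to 5.51 in MDA-MB-231. GFOGER replicate 3 of MDA-MB-231 and IKVAV replicate 3 of T47D stood apart from the other replicates of their conditions (chi-square per degree of freedom of 16.4 to 18.6 against 2.51 to 9.92 between other replicates), and the counts of members found to differ are given with and without them.

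Epithelial cells are joined near their apical surface by tight junctions, in which claudins and the MARVEL proteins occludin, tricellulin and MARVELD3 form strands that are held by the zonula occludens and cingulin plaque proteins. Desmosomes join the intermediate filaments of neighbouring cells through desmogleins and desmocollins, which bind plakoglobin and plakophilins and, through these, desmoplakin. The Crumbs, Par and Scribble complexes place these junctions along the cell height, and transcriptional repressors of the ZEB and SNAI families bind E-boxes in the promoters of several junction genes.

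The promoters of 3 members were read from RefSeq on GRCh38.p14, as the 250 bases before an annotated transcription start. CRB3 is shown because its window held the most E-boxes before the start among the members, CGN because it held the only match to a grainyhead-type motif, and TJP3 because this gene differed most between the peptides in MDA-MB-231. Capitals mark the E-box CAGGTG or its reverse complement CACCTG, and in CGN the motif AACNGGTT or its reverse complement AACCNGTT. The windows lie at chr19:6464021-6464270 on the plus strand for CRB3, at chr1:151511137-151511386 on the plus strand for CGN, and at chr19:3721487-3721736 on the plus strand for one of the starts of TJP3. TJP3 had 2 windows, and the one with an E-box is shown. The other, at chr19:3708134-3708433, held none.
CRB3: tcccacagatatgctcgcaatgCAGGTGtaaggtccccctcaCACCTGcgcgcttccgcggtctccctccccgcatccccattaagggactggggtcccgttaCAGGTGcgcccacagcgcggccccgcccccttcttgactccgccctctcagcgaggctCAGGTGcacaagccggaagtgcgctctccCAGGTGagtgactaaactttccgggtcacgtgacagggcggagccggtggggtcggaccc
CGN: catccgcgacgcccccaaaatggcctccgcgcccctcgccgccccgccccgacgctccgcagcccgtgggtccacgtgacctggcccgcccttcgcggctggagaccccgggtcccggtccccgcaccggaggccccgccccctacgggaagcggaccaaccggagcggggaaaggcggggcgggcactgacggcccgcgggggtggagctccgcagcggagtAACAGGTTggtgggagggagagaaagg
TJP3: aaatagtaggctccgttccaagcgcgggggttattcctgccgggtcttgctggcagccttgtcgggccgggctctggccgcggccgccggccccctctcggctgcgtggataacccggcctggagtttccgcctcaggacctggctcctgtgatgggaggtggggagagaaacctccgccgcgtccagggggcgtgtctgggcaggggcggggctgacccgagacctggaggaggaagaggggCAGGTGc
The E-boxes of CRB3 began 228, 208, 147, 89 and 60 bases before the start, that of TJP3 began 7 bases before it, and the grainyhead-type match of CGN began 27 bases before it.

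Of the 34 members, 19 had a window of 300 bases (250 before and 50 after a start) in this table. An E-box was found on either strand in at least 1 window of 10 of these 19 genes (52.6%), against 24.1% of the 27305 genes in the table. At least 2 E-boxes were found in 1 window in 6 of the 19 (31.6%), against 4.22% of all genes. The 10 genes were CRB3, CLDN3, CLDN7, OCLN, TJP1, TJP3, DSP, DSC2, DSG2 and JUP. Of the 13 matched members that were lower in MDA-MB-231 than in T47D, 8 held an E-box, and of the other 6 matched members, TJP1 and DSG2 did. The members' windows were richer in G and C (median over genes of 71.3%, taking the richest window of each) than those of all genes (59.7%), and the part of base composition in these shares was not tested. A gene with several windows, such as TJP1 with 4, had more chances of a match, and the part of this was not tested either. A match of this kind describes the letters of a window and not a bound site, and its link to the levels was not tested.

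The first comparison asked how the cell lines differed in the transcripts of the junction and polarity machinery, averaged over both peptides. Of the 33 members that passed the filter on low counts, 23 were lower and 2 were higher in MDA-MB-231 than in T47D at a fold difference of at least 2 and an adjusted p below 0.05 (edgeR quasi-likelihood test with Benjamini-Hochberg adjustment over 15320 genes). Over all genes tested, 22.6% were lower and 23.7% were higher by the same rule. The median log2 difference was -1.97 over the members and -0.01 over all genes. The genes CLDN8, CLDN9 and MARVELD3 passed the filter through T47D alone, which favours a difference. Among the 30 members that passed the filter in both lines, 20 were lower (66.7%) and 2 higher (6.67%), against 18.6% and 17.9% of 12562 genes. Both counts of members were the same without GFOGER replicate 3 of MDA-MB-231 and without IKVAV replicate 3 of T47D. Without regard to fold, 25 members were lower and 7 were higher, where 42.5% of all genes were lower and 42% were higher, so that most genes of the table passed that limit. In bulk RNA, fewer cells that express a gene and less RNA of it in each cell cannot be told apart.

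**Figure D1:**
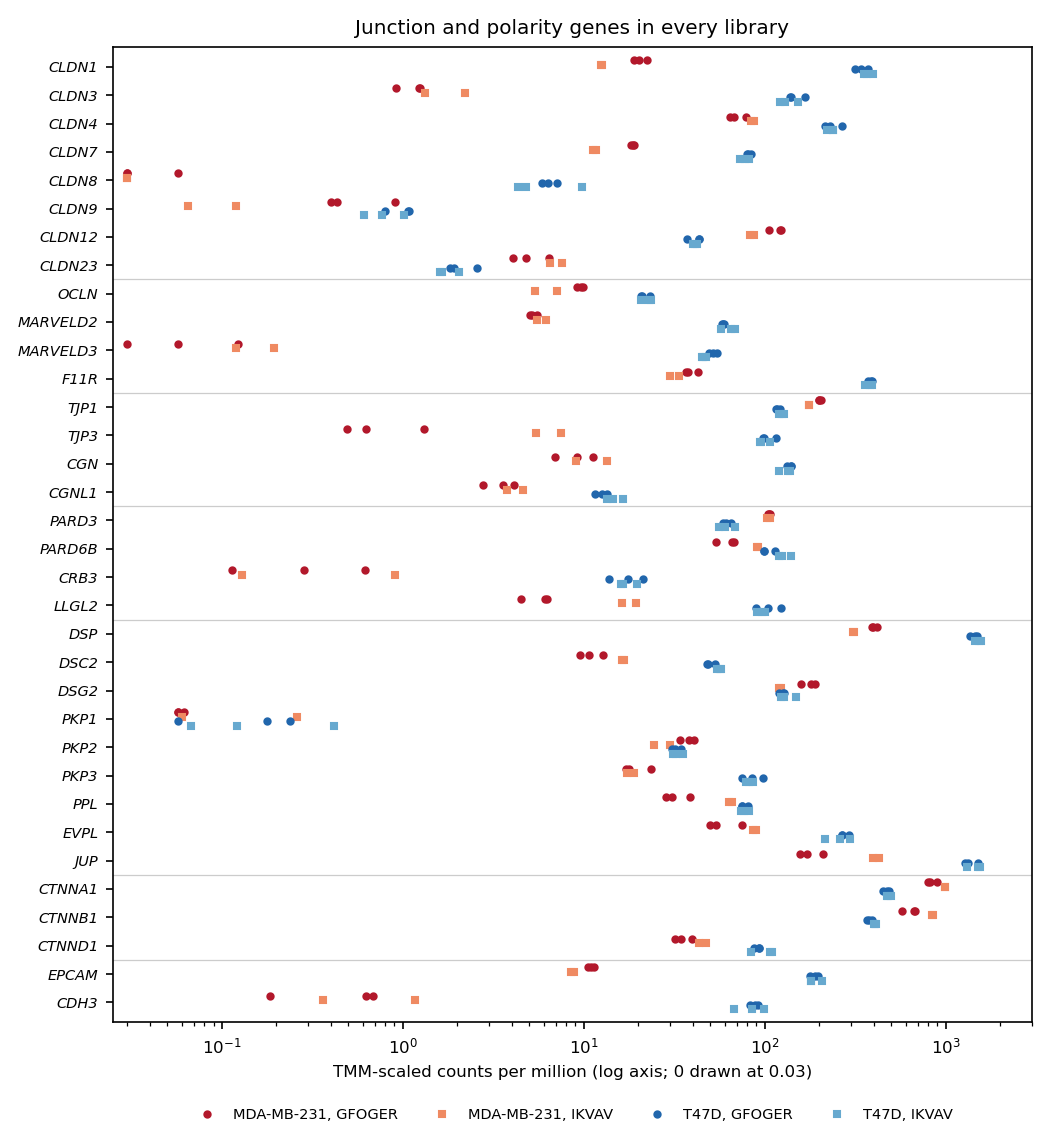
Each point is 1 of the 11 libraries, placed by its TMM-scaled cpm on a log axis for each of the 34 genes, with circles for GFOGER, squares for IKVAV, red for MDA-MB-231 and blue for T47D. CTNNA1 lies at 799 to 986 in MDA-MB-231 and at 452 to 500 in T47D, to the right of its T47D points, whereas most members lie further left in MDA-MB-231, down to 0 for CLDN8.

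**Figure D2:**
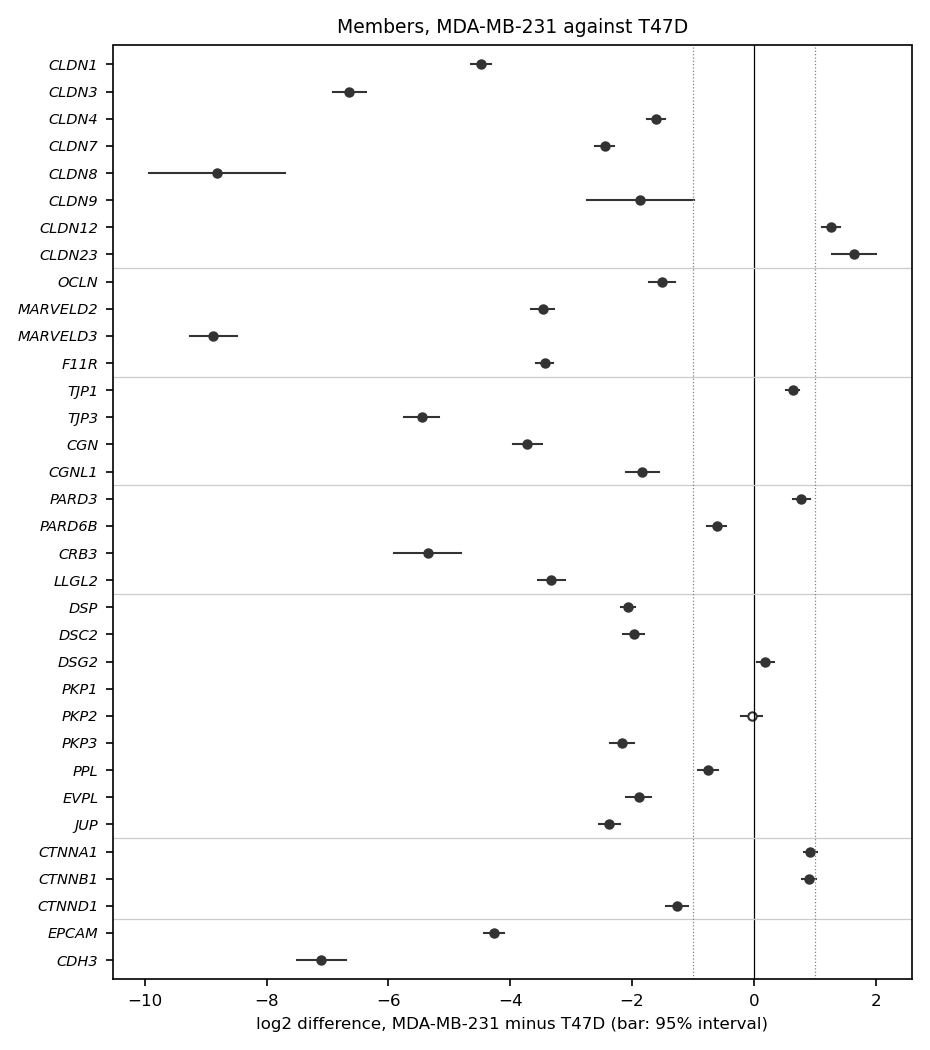
Each circle gives the log2 difference of MDA-MB-231 minus T47D for 1 member with its 95% interval, filled where the adjusted p was below 0.05, with dotted lines at a fold of 2 in either direction and no circle for PKP1, which was not tested. MARVELD3 at -8.87 and CLDN8 at -8.81 lie farthest to the left, where the fitted value depends on the prior count because MDA-MB-231 had 8 counts and 1 count of them, and CLDN23 at 1.64 lies farthest to the right.

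Claudins are the 4-pass membrane proteins that seal or open the space between cells. Of the 8 claudins, 6 were lower, CLDN8 and CLDN9 among them, and 2 were higher in MDA-MB-231. CLDN1, a barrier claudin, lay at 20.1, 18.9 and 22.4 cpm with GFOGER and at 12.6 and 12.4 with IKVAV in MDA-MB-231. In T47D it lay at 342, 314 and 370 cpm with GFOGER and at 368, 355 and 397 with IKVAV. Every T47D library thus lay above every MDA-MB-231 library, and the fitted difference was 22.3-fold (log2 difference -4.48 ± 0.08 SE, edgeR adjusted p = 3.34e-21). CLDN3, another sealing claudin, lay at 0.914 to 2.20 cpm in the 5 MDA-MB-231 libraries and at 121 to 168 in the 6 T47D libraries, a difference of 99.6-fold (edgeR adjusted p = 2.36e-20). CLDN4, its neighbour on chromosome 7 with 60592 bases and no gene of the table between them, lay at 64.3 to 86.9 cpm in MDA-MB-231 and at 215 to 268 in T47D, a difference of 3.04-fold (edgeR adjusted p = 2.64e-14). The neighbours thus differed in the same direction by unequal amounts. CLDN7, which also binds EPCAM, was 5.45-fold lower in MDA-MB-231 (11.2 to 19.0 against 73.4 to 84.3 cpm), and it overlaps C17orf81, which reached 515 counts. CLDN8 had 1 count in all 5 MDA-MB-231 libraries together and 71 to 165 counts in each T47D library, so that the T47D level was 536 times the MDA-MB-231 level with an exact 95% counting interval of 95.8 to 21186. CLDN9 had 1 to 16 counts in MDA-MB-231 and 10 to 18 in T47D, and its levels overlapped between the lines (0.0648 to 0.911 against 0.610 to 1.08 cpm). With GFOGER libraries alone it did not pass (log2 difference -0.74, edgeR adjusted p = 0.111).

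CLDN12 and CLDN23 ran the other way. CLDN12, which lacks the usual binding motif for plaque proteins at its end, lay at 83.0 to 123 cpm in MDA-MB-231 and at 37.0 to 43.6 in T47D, 2.41-fold higher in MDA-MB-231 (edgeR adjusted p = 5.60e-13). CLDN23 lay at 4.08 to 7.58 cpm in MDA-MB-231 and at 1.60 to 2.56 in T47D, 3.12-fold higher in MDA-MB-231 (edgeR adjusted p = 2.15e-08). Neither gene overlapped between the lines in any library. Per kilobase, the 8 claudins summed to 89.2 ± 3.21 cpm (SD, n = 3) in MDA-MB-231 with GFOGER and 84.3 ± 0.63 (n = 2) with IKVAV, against 402 ± 20.5 (n = 3) and 395 ± 15.2 (n = 3) in T47D. In T47D this sum was divided among CLDN4 (32.4% in both peptides), CLDN3 (28.9% with GFOGER and 26.6% with IKVAV), CLDN1 (24.7% and 27.5%) and CLDN7 (9.95% and 9.65%). In MDA-MB-231, CLDN4 made up 43.2% with GFOGER and 55.5% with IKVAV and CLDN12 made up 35.7% and 27.6%, while CLDN3 made up 0.996% and 1.64%. The claudin transcripts of MDA-MB-231 were thus mainly CLDN4 and CLDN12.

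**Figure D3:**
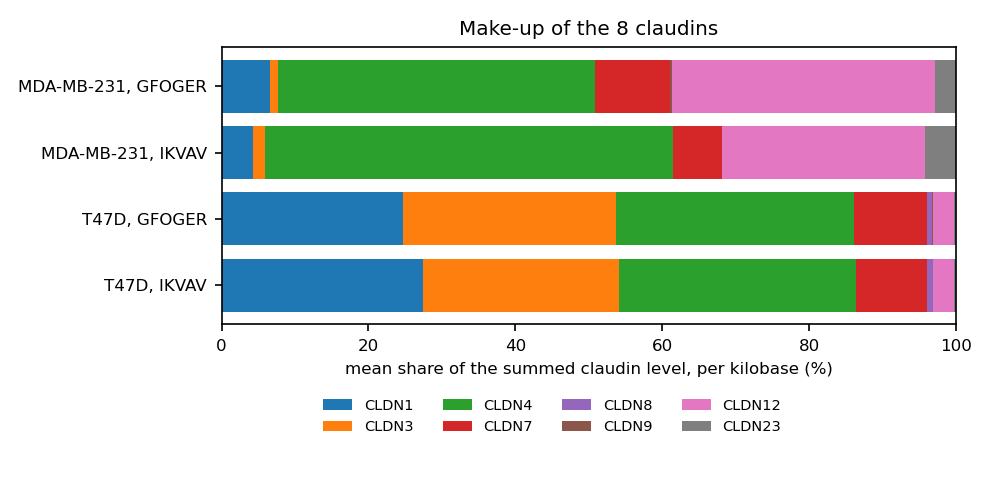
Each bar divides the summed level of the 8 claudins, in cpm per kilobase of gene model, into the mean share of each gene over the libraries of 1 condition. CLDN4 is the largest segment in all 4 bars, followed by CLDN12 in MDA-MB-231 (35.7% and 27.6%) and by CLDN3 or CLDN1 in T47D (28.9% and 27.5%).

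All 4 of the other tight junction membrane proteins were lower in MDA-MB-231. MARVELD3, a MARVEL protein of the tight junction, had 0 to 3 counts in each MDA-MB-231 library, 8 in all, and 661 to 912 in each T47D library. The T47D level was 510 times that of MDA-MB-231 with an exact 95% counting interval of 259 to 1182. MARVELD2, or tricellulin, which seals the points where 3 cells meet, lay at 5.06 to 6.16 cpm in MDA-MB-231 and at 57.3 to 68.4 in T47D (log2 difference -3.46 ± 0.09 SE). OCLN, or occludin, lies 50228 bases from MARVELD2 on chromosome 5 with no gene of the table between them. It lay at 5.38 to 9.88 cpm in MDA-MB-231 and at 20.7 to 23.5 in T47D (2.85-fold, edgeR adjusted p = 2.04e-11). F11R, the junctional adhesion molecule JAM-A, lay at 30.1 to 42.5 cpm in MDA-MB-231 and at 359 to 391 in T47D (10.8-fold). The MARVEL proteins thus ranged from a difference of 2.85-fold for OCLN to MARVELD3, which was close to undetected in MDA-MB-231.

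In the plaque, TJP3 (ZO-3), CGN (cingulin) and CGNL1 (paracingulin) were lower in MDA-MB-231 and TJP1 (ZO-1) was not. TJP3 was 43.8-fold lower (edgeR adjusted p = 8.17e-19), CGN was 13.2-fold lower (6.92 to 13.5 against 120 to 139 cpm) and CGNL1 was 3.55-fold lower (2.78 to 4.64 against 11.5 to 16.5 cpm). TJP1, the scaffold that is also found at adherens junctions, lay at 176 to 204 cpm in MDA-MB-231 and at 116 to 128 in T47D, and its log2 difference was 0.64 ± 0.05 SE (edgeR adjusted p = 6.64e-10). Per kilobase, TJP3 made up 68.8% (GFOGER) and 66.5% (IKVAV) of the summed TJP1 and TJP3 level in T47D, and 0.994% and 8.40% in MDA-MB-231. The zonula occludens transcripts of T47D were thus mostly TJP3 and those of MDA-MB-231 almost wholly TJP1.

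Among the polarity genes, CRB3 and LLGL2 were lower in MDA-MB-231, PARD6B was lower by less than 2-fold and PARD3 was higher by less than 2-fold. CRB3, the Crumbs protein of epithelial cells, had 2 to 15 counts in the MDA-MB-231 libraries and 241 to 358 in the T47D libraries, a difference of 40.8-fold (edgeR adjusted p = 8.70e-14). It overlaps DENND1C, which reached 345 counts, so that reads could be shared between them. LLGL2, the basolateral Lgl protein of epithelia, lay at 4.51 to 19.6 cpm in MDA-MB-231 and at 90.1 to 123 in T47D (10.0-fold, edgeR adjusted p = 4.70e-17). PARD3, which recruits the Par complex, lay at 103 to 108 cpm in MDA-MB-231 and at 55.6 to 68.1 in T47D (log2 difference 0.78 ± 0.07 SE, edgeR adjusted p = 8.44e-10). PARD6B, its partner, lay at 53.9 to 92.0 cpm against 98.7 to 140 (log2 difference -0.61 ± 0.07 SE). Thus the membrane anchor CRB3 and the basolateral LLGL2 differed more than the cytoplasmic Par scaffold.

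Among the 9 desmosome genes, 5 were lower in MDA-MB-231 by at least 2-fold. JUP, or plakoglobin, lay at 156 to 430 cpm in MDA-MB-231 and at 1281 to 1540 in T47D (5.19-fold, edgeR adjusted p = 2.06e-16). DSP, or desmoplakin, which ties the plaque to keratin filaments, lay at 309 to 416 cpm against 1368 to 1577 (4.18-fold). The others were PKP3 (17.1 to 23.4 against 75.2 to 97.7 cpm, 4.47-fold), the desmosomal cadherin DSC2 (9.57 to 16.6 against 47.9 to 57.2 cpm, 3.93-fold) and EVPL, or envoplakin (49.9 to 89.3 against 216 to 298 cpm, 3.70-fold). PPL, or periplakin, the partner of EVPL, lay at 28.5 to 65.6 cpm against 73.9 to 82.2 (log2 difference -0.75 ± 0.08 SE). DSG2, the desmoglein of simple epithelia, lay at 120 to 190 cpm in MDA-MB-231 and at 119 to 148 in T47D (log2 difference 0.19 ± 0.07 SE, edgeR adjusted p = 0.0135), and it was -0.13 (edgeR adjusted p = 0.245) with the IKVAV libraries alone. PKP2, or plakophilin-2, did not pass the test, at 24.6 to 40.4 cpm against 30.8 to 35.5 (log2 difference -0.04, 95% interval -0.21 to 0.14). PKP1, the plakophilin of stratified epithelia, had 1 to 7 counts in every library and was not tested. DSC2 and DSG2 lie on chromosome 18 with 395638 bases and 4 genes of the table between them, and DSG2 made up 93.7% (GFOGER) and 87.3% (IKVAV) of their summed level per kilobase in MDA-MB-231, against 69.9% and 68.6% in T47D.

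The catenins split. CTNNA1 (alpha-catenin), which links cadherin complexes to actin, lay at 799 to 986 cpm in MDA-MB-231 and at 452 to 500 in T47D (log2 difference 0.93 ± 0.05 SE, edgeR adjusted p = 1.01e-12). CTNNB1 (beta-catenin), which binds cadherin tails and also acts in Wnt signalling, lay at 573 to 856 cpm against 366 to 412 (log2 difference 0.91 ± 0.06 SE). CTNND1 (p120-catenin) lay at 31.8 to 47.1 cpm against 83.7 to 110, 2.39-fold lower in MDA-MB-231. It lies within the span of the readthrough gene TMX2-CTNND1, listed at 0 in every library, so reads common to both may have been dropped and its level is uncertain. Per kilobase, JUP made up 79.4% ± 1.82 (SD, n = 3) of the summed JUP and CTNNB1 level in T47D with GFOGER and 79.0% ± 1.51 (n = 3) with IKVAV, and 23.1% ± 4.41 (n = 3) in MDA-MB-231 with GFOGER and 33.3% and 34.8% in the 2 libraries with IKVAV. Plakoglobin and beta-catenin are close relatives, and the more abundant transcript of the pair was JUP in T47D and CTNNB1 in MDA-MB-231.

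The surface molecules were lower in MDA-MB-231 as well. EPCAM, a homotypic adhesion molecule of epithelia, lay at 8.50 to 11.4 cpm in MDA-MB-231 and at 179 to 208 in T47D (19.3-fold, edgeR adjusted p = 7.64e-21). CDH3 (P-cadherin) lay at 0.185 to 1.17 cpm against 67.6 to 98.9 (137-fold, edgeR adjusted p = 2.86e-18). Its neighbour on chromosome 16, CDH1, 38237 bases away, had a log2 difference of -8.23, so that both cadherins were low in MDA-MB-231.

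The lowest levels need a measure of how low a level the libraries can show. Of the marker and factor genes examined, 12 lay at 50 cpm or more in one line and below 1% of that in the other, and their level in the other line was 0.108% to 0.238% of the level in their own (median 0.200%). These included ESR1 at 0.225%, PGR at 0.184% and FOXA1 at 0.177% in MDA-MB-231, and VIM at 0.221%, AXL at 0.238% and ZEB1 at 0.219% in T47D. Among the members, CLDN8 lay at 0.179% and MARVELD3 at 0.203% of their T47D level in MDA-MB-231. These 2 members lay within the range of the 12 genes, whose similarity in both directions has a cause that was not tested. If any of these few counts came from outside MDA-MB-231 cells, the ratios given above for CLDN8 and MARVELD3 are lower bounds. CDH3 at 0.706%, CLDN3 at 0.982%, CRB3 at 2.35% and TJP3 at 3.03% lay above the range of the 12 genes. These are means over the MDA-MB-231 libraries. The lowest library of CDH3, at 0.216%, fell within that range. CDH1, which was not in the lists searched for the 12, lay above the range at 0.329%.

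Genes of the same structures that are not members were higher as well as lower in MDA-MB-231. The counts that follow are over genes that passed the filter in both lines, since a gene that passes through 1 line is favoured to differ. Over all 12562 such genes, 17.9% were higher and 18.6% were lower by the same rule. Of 27 other tight junction genes, 12 passed in both, of which 4 were higher and 1 was lower. Another 7 passed in 1 line. Among these, ILDR1, which recruits tricellulin, lay at 0.0569 to 0.324 cpm in MDA-MB-231 and at 9.74 to 11.9 in T47D, and CLDN2, a pore-forming claudin, lay at 6.30 to 20.2 against 0.119 to 0.549. JAM2, CLDN14 and CLDN16 lay at 2.20 cpm or less in every library. Of 20 other polarity genes, 16 passed in both lines, of which 2 were higher and 3 were lower. The 2 higher genes were LLGL1 (log2 difference 1.67, at 66.4 to 94.5 against 21.5 to 29.6 cpm) and PARD3B (1.31). Among the lower genes, INADL, the PATJ scaffold that CRB3 reaches through its binding partner, had a log2 difference of -2.88. DLG2 passed through T47D alone, at 24.1 to 35.1 cpm against 0.362 to 0.629. Of 11 other adherens junction genes, 7 passed in both lines, of which 4 were higher, among them PVRL3 (4.65), and 2 were lower, among them CDH1. PVRL4 passed through T47D alone, at 93.4 to 107 cpm against 0.0571 to 0.362. Of 7 other desmosome genes, 2 passed in both lines and PKP4 was lower (-1.06), while DSC1 had no count in MDA-MB-231 and 0.297 to 0.683 cpm in T47D. Members and other genes were not compared by a test.

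The factors known to act on junction genes also differed. Of 9 epithelial transcription and splicing factors, 6 passed the filter in both lines and 5 of these were lower by at least 2-fold, among them GRHL2, a grainyhead factor (log2 difference -8.86), while EHF was lower by less. ESRP1, an epithelial splicing regulator, passed through T47D alone with OVOL1 and OVOL2, and lay at 253 to 316 cpm in T47D and at 0.309 to 1.04 in MDA-MB-231. Of 5 repressors that bind E-boxes, SNAI1 was the 1 that passed in both lines, and it did not pass the test (edgeR adjusted p = 0.239). ZEB1 (107 to 148 against 0.171 to 0.407 cpm), SNAI2 (23.4 to 53.4 against 0 to 0.228) and ZEB2 (18.4 to 26.4 against 0.0598 to 0.298) passed through MDA-MB-231 alone. TWIST1 had no count in any MDA-MB-231 library and 1.14 to 2.87 cpm in T47D. A link between these factors and the members was not tested.

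The next comparison asked whether the collagen mimic and the laminin mimic differed in MDA-MB-231 cells. TJP3, LLGL2 and JUP were lower with GFOGER than with IKVAV by at least 2-fold, and no member was higher by that much. By the same rule 6.46% of the 14092 genes tested were lower and 3.12% were higher, so 3 of the 30 members tested is a share close to the background. By adjusted p alone, 11 members were lower and 7 were higher, 18 in all, against 21.4% of all genes lower and 21.4% higher. The median log2 difference was -0.28 over the 30 members and 0.00 over all genes. Without IKVAV replicate 2 the 18 became 10 and the median -0.11, and without GFOGER replicate 2 the median was -0.17. CLDN8, CLDN9, MARVELD3 and PKP1 were under the filter.

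TJP3, at chr19:3728374-3750682 (hg19), lay at 0.629, 0.494 and 1.31 cpm with GFOGER (11, 8 and 23 counts) and at 5.44 and 7.47 with IKVAV (84 and 124 counts). Both IKVAV libraries lay above all 3 GFOGER libraries, and the level was 7.91-fold lower with GFOGER (log2 difference -2.98 ± 0.34 SE, edgeR adjusted p = 3.20e-06). With IKVAV it reached 6.36% of the T47D level, and with GFOGER 0.799%. LLGL2, at chr17:73521783-73571290, lay at 4.51, 6.24 and 6.09 cpm with GFOGER and at 19.6 and 16.3 with IKVAV, 3.21-fold lower with GFOGER (log2 difference -1.68 ± 0.18 SE, edgeR adjusted p = 1.68e-06). JUP, at chr17:39910859-39942964, lay at 171, 156 and 211 cpm with GFOGER and at 396 and 430 with IKVAV, 2.32-fold lower (log2 difference -1.21 ± 0.11 SE, edgeR adjusted p = 2.29e-07). The 3 genes thus lay nearer to their T47D levels in the laminin mimic, yet below them in every library. PPL lay at 30.8, 28.5 and 38.5 cpm with GFOGER and at 63.6 and 65.6 with IKVAV (log2 difference -0.99 ± 0.13 SE, edgeR adjusted p = 1.16e-05), just under the 2-fold limit. Without GFOGER replicate 3, which stood apart, all 3 remained past the rule and PPL joined them at -1.12. The totals implied by the deposited RPKM values fall into a lower and a higher set, and IKVAV replicate 1 alone lies in the lower set in MDA-MB-231. Within the higher set, which leaves 1 IKVAV library, the log2 differences were -3.19 for TJP3, -1.55 for LLGL2, -1.27 for JUP and -1.02 for PPL.

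Among 10 markers of luminal cells, 9 were tested and 2 were lower with GFOGER in MDA-MB-231. AGR2 lay at 8.71 to 9.26 cpm with GFOGER and at 25.3 and 27.0 with IKVAV, and TFF3 at 0.0571 to 0.228 against 2.71 and 2.85, the same order as TJP3. ESR1 lay at 0.679 to 0.797 cpm with GFOGER and at 0.518 and 0.542 with IKVAV, the opposite order. The 10 markers summed to 523 to 636 cpm with GFOGER and to 599 to 615 with IKVAV. The 6 mesenchymal markers, which MDA-MB-231 itself expresses, summed to 5865 to 6528 cpm with GFOGER and to 3543 to 3579 with IKVAV, and of these AXL and FOSL1 were higher by at least 2-fold. Of 4 leukocyte markers, CD68 made up nearly all of a sum of 343 to 463 cpm with GFOGER and 246 to 257 with IKVAV, while CD3E had no count in MDA-MB-231. Endothelial markers summed to 8.34 to 9.91 against 14.4 to 14.8 cpm, and fibroblast markers to 11.2 to 15.3 against 19.0 to 20.1 cpm. The part of these markers in the members' differences was not tested.

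**Figure D4:**
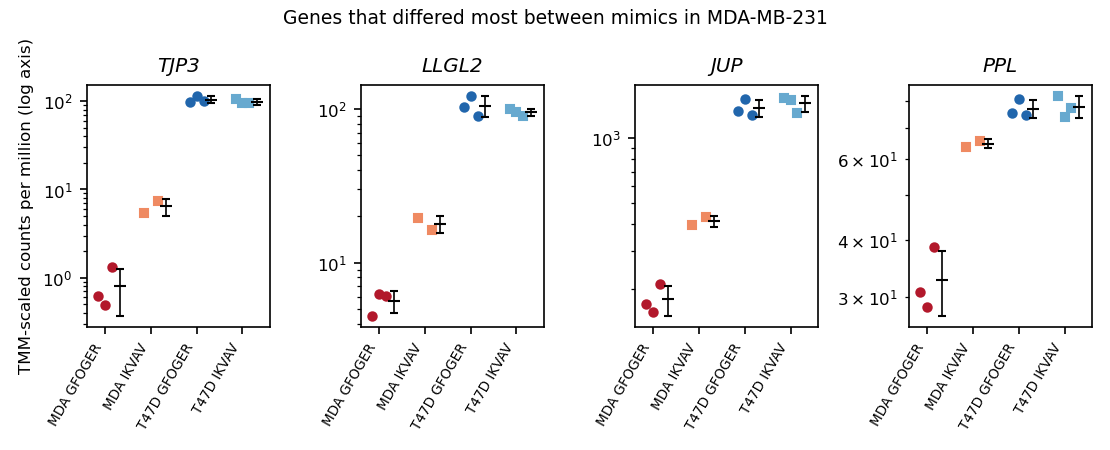
Points are the libraries of each condition in TMM-scaled cpm on a log axis, and the dash and bar beside them are the mean and SD, for TJP3, LLGL2, JUP and PPL. In MDA-MB-231 every IKVAV point lies above every GFOGER point, as for JUP at 396 and 430 against 156 to 211, and in T47D the peptides overlap.

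Differences of less than 2-fold ran in both directions among the claudins and among the desmosome genes. Among the claudins, CLDN1 (0.70 ± 0.14 SE) and CLDN7 (0.70 ± 0.14) were higher with GFOGER, as was CLDN12 (105 to 123 against 83.0 and 87.1 cpm, 0.44 ± 0.10), and CLDN4 was lower (64.3 to 79.2 against 83.6 and 86.9 cpm, -0.29 ± 0.11). CLDN7 lay at 18.3, 18.7 and 19.0 cpm with GFOGER and at 11.7 and 11.2 with IKVAV, so that its libraries, like those of CLDN1, did not overlap. OCLN was higher with GFOGER (9.60, 9.88 and 9.17 against 5.38 and 7.11 cpm, log2 difference 0.60 ± 0.19 SE, edgeR adjusted p = 0.0166). CLDN3 (-0.64, 95% interval -1.46 to 0.18), CLDN23 (-0.47, -0.93 to -0.01), MARVELD2 (-0.15, -0.58 to 0.27) and F11R (0.28, 0.01 to 0.54) had adjusted p-values of 0.0824 to 0.573 by the edgeR quasi-likelihood test. CLDN9, which was not tested, had 7, 7 and 16 counts with GFOGER and 1 and 2 with IKVAV. It was tested in 2 alternatives, with a log2 difference of 2.55 in each (edgeR adjusted p = 0.0111 with all 4 conditions in one fit and 0.044 with no filter on low counts).

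In desmosomes, DSG2 (190, 181 and 159 cpm with GFOGER against 123 and 120, log2 difference 0.53 ± 0.10 SE, edgeR adjusted p = 0.000567), PKP2 (34.2 to 40.4 against 24.6 and 29.8 cpm, 0.46 ± 0.13) and DSP (392 to 416 against 309 and 313 cpm, 0.36 ± 0.09) were higher with GFOGER. DSC2 (12.7, 10.7 and 9.57 cpm against 16.3 and 16.6, log2 difference -0.59 ± 0.16 SE) and EVPL (49.9 to 74.5 against 85.8 and 89.3 cpm, -0.57 ± 0.14) were lower, together with JUP and PPL. PKP3 had a log2 difference of 0.09 (95% interval -0.24 to 0.42). The desmosomal cadherins DSG2 and DSC2 thus differed in opposite directions, and so did desmoplakin and its plakin relatives EVPL and PPL. Per kilobase, DSP made up 74.5% ± 3.15 (SD, n = 3) of the summed DSP, PPL and EVPL level with GFOGER and 57.5% ± 0.39 (n = 2) with IKVAV, while that sum was 55.6 cpm per kilobase in both.

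All 3 catenins were lower with GFOGER, CTNNB1 by the most (674, 666 and 573 cpm against 841 and 856, log2 difference -0.42 ± 0.09 SE, edgeR adjusted p = 0.00166), then CTNND1 (31.8 to 39.4 against 43.3 and 47.1 cpm, -0.37 ± 0.12) and CTNNA1 (799 to 892 against 986 in both, -0.24 ± 0.09). PARD6B was lower as well (53.9 to 68.0 against 90.3 and 92.0 cpm, -0.55 ± 0.11, edgeR adjusted p = 0.00111). PARD3 had a log2 difference of -0.00 with a 95% interval of -0.20 to 0.20. CRB3 (-0.66, -2.30 to 0.98) and CDH3 (-0.58, -1.89 to 0.73) had too few counts for a narrower interval. TJP1 (0.18, -0.00 to 0.37), EPCAM (0.33, -0.01 to 0.68), CGN (-0.32, -0.77 to 0.12) and CGNL1 (-0.27, -0.80 to 0.25) did not pass. Of the 18 members past an adjusted p of 0.05, 9 stayed past it in every other fit of that comparison.

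**Figure D5:**
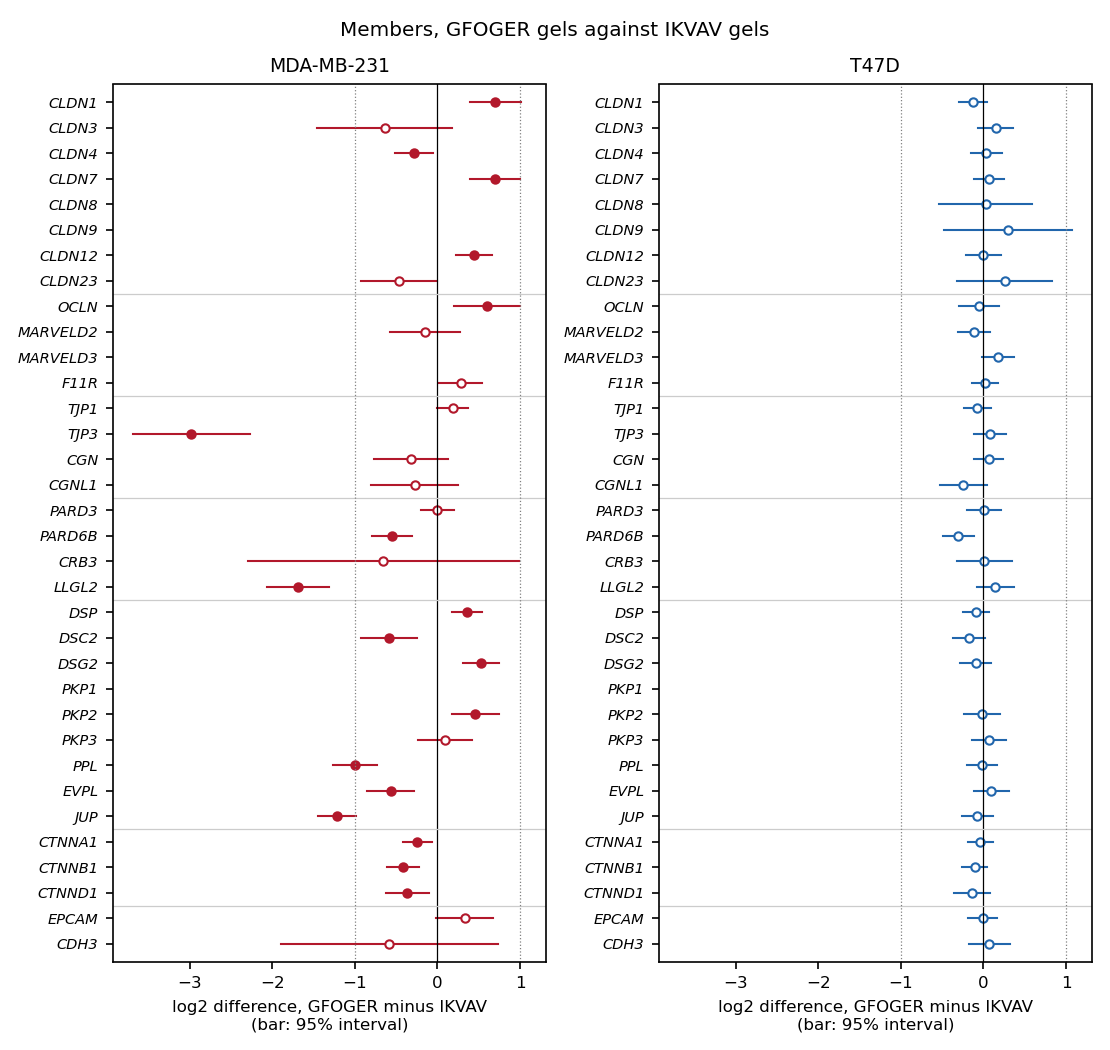
Each circle gives the log2 difference of GFOGER minus IKVAV for 1 member with its 95% interval, for MDA-MB-231 on the left and T47D on the right, filled where the adjusted p was below 0.05, with dotted lines at a fold of 2. TJP3 at -2.98 is farthest from 0 in MDA-MB-231, and no circle is filled for T47D.

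Among genes that are not members, the E-box binding repressor SNAI2 had a log2 difference of 0.97 between the peptides in MDA-MB-231 (41.5 to 53.4 cpm with GFOGER against 23.4 and 23.8, edgeR adjusted p = 2.38e-05), ZEB1 of -0.40 (edgeR adjusted p = 0.0025) and SNAI1 of -1.27 (edgeR adjusted p = 0.000378). The epithelial factors GRHL3 (-2.21) and ELF3 (-2.06) were lower with GFOGER by at least 2-fold, and ELF3 lay at 5.69 to 7.35 cpm against 24.7 and 30.2. GRHL2 did not pass (-1.07, edgeR adjusted p = 0.119), and ESRP1 was under the filter. CDH1 had a log2 difference of -0.97 (2.29 to 2.59 against 4.04 and 5.51 cpm, edgeR adjusted p = 0.00558). Of the other tight junction genes, CLDN2 was lower (-1.35) and ESAM, a junctional adhesion molecule best known in endothelium, was higher (1.04) with GFOGER. No other polarity, desmosome or adherens junction gene reached a 2-fold difference that passed.

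The same comparison in T47D cells found no member called. By the edgeR quasi-likelihood test, 0 of 33 members passed at an adjusted p of 0.05, with or without a 2-fold limit, against 0.11% of the 13642 genes tested without that limit and 0.0293% with it. DESeq2 and the edgeR exact test called 0 as well. Over all genes, 1522 had an unadjusted p below 0.05, and the 4 genes called became 92 without IKVAV replicate 3. The intervals bounded the differences closely for the abundant members. For TJP3 the log2 difference was 0.08 (95% interval -0.12 to 0.28), for LLGL2 0.15 (-0.08 to 0.37) and for JUP -0.07 (-0.26 to 0.12). These 3 intervals exclude the 2-fold difference that was seen in MDA-MB-231. PARD6B had the largest difference relative to its error, at 99.1, 98.7 and 113 cpm with GFOGER and 120, 140 and 124 with IKVAV (log2 difference -0.30 ± 0.09 SE, edgeR adjusted p = 0.227). Without IKVAV replicate 3, which stood apart, it passed (log2 difference -0.33, edgeR adjusted p = 0.0194). The widest interval belonged to CLDN9 (0.30, -0.47 to 1.08), which had 10 to 18 counts in each library.

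The interaction of cell line and peptide was then tested, as the peptide difference in MDA-MB-231 minus that in T47D. It was past the 2-fold rule for TJP3 (-3.05 ± 0.29 SE, edgeR adjusted p = 5.49e-07), LLGL2 (-1.82 ± 0.20, 3.05e-06) and JUP (-1.13 ± 0.15, 3.02e-05), 3 of 33 members tested, where 6.39% of all genes were called. By adjusted p alone 12 members passed, where 21% of all genes did. Of these, CLDN1 (0.84 ± 0.14 SE), OCLN (0.66 ± 0.20), CLDN7 (0.63 ± 0.14), DSG2 (0.63 ± 0.13), PKP2 (0.49 ± 0.16), DSP (0.46 ± 0.11) and CLDN12 (0.45 ± 0.14) were above 0, and PPL (-0.97 ± 0.15) and EVPL (-0.65 ± 0.18) joined the first 3 below it. The peptide difference of PARD6B, which was below 0 in both lines, did not pass as different between them (-0.24, 95% interval -0.55 to 0.07). The same held for CTNNB1 (-0.30, -0.54 to -0.07, edgeR adjusted p = 0.059) and DSC2 (-0.40, -0.75 to -0.06, edgeR adjusted p = 0.0903), though CTNNB1 passed in 4 alternatives (adjusted p of 0.0335 to 0.0446) and DSC2 without GFOGER replicate 1 of MDA-MB-231 (adjusted p = 0.0389).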

How the data were processed

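RNA-seq was run on 11 libraries in 4 conditions. The authors trimmed single-end reads from a stranded poly(A) library kit with Trim Galore 0.4.4, aligned them to hg19 with TopHat2 2.1.0 and counted them with HTSeq 0.6.1p1, per the labels and the study's methods. The strand option and the gene annotation are not given in the sources used here, so reads of overlapping genes may be shared. The deposited table holds raw read counts and RPKM values per gene, and the authors' RPKM values imply library totals in 2 sets that differ from the summed counts. RPKM was used only to derive that total as a term in an alternative. Of rows that repeat a symbol, the row with the most counts was kept (1288 of 24656 rows were left out, 4 of them with a count).

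Members and gene lists were chosen with earlier results of these data known. Counts were filtered with filterByExpr (minimum count 10, minimum total 15), scaled by TMM and fitted with edgeR 4.0.16 in R 4.3.3 (glmQLFit with robust estimation, glmQLFTest), with Benjamini-Hochberg adjustment over all genes tested. A gene was called at an adjusted p below 0.05 and a fold difference of at least 2. The comparison of peptides used the libraries of 1 cell line, and those of cell lines and of their interaction used all 11. Standard errors were derived as the difference divided by the root of F. Counting intervals are exact 95% intervals for the ratio of Poisson counts and cover counting error only. Replicates of every condition differed by more than sampling noise (chi-square per degree of freedom 2.51 to 18.6). In data simulated on these libraries, the scripts were tested and recovered genes with known changes. Those changes were larger than 2-fold, in genes with ample counts and the same spread for every gene. Recovery of smaller changes, or in genes with few counts, was not tested. Alternatives were other normalizations and filters, DESeq2 1.42.0, the exact test, glmTreat, a replicate block, a term for the RPKM totals, subsets by peptide and leaving out each library. All 34 members are named, those past an adjusted p of 0.05 with their values. Of the other lists, the called genes with the largest differences are named, at most 5 per list, with CDH1, GRHL2, ESRP1, ZEB1 and SNAI2 whatever their values. Values of EHF, ZEB2, SNAI1, TWIST1, PARD3B and the marker genes outside that rule were chosen after they were seen.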

Additional observations from a re-analysis of the deposited data

Results flagged for a closer look

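Of the 33 members tested, 3 had a peptide difference that was not the same in the 2 cell lines, by the edgeR interaction test with Benjamini-Hochberg adjustment, and reached 2-fold. By the same rule 6.39% of the 15320 genes tested were called. TJP3 had an interaction of -3.05 on the log2 scale (adjusted p = 5.49e-07), LLGL2 of -1.82 (adjusted p = 3.05e-06) and JUP of -1.13 (adjusted p = 3.02e-05). For each of them the peptides were separated in MDA-MB-231, IKVAV being higher, and overlapped in T47D. Most other members were also separated in MDA-MB-231, in one direction or the other, and most overlapped in T47D. The share of all genes separated in this way was not computed, so the separation cannot be called particular to the members.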

How the results depend on the processing

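Of the 4 counts of members called, 2 moved by more than 1.5 times where the 2-fold limit was dropped, to 18 between peptides in MDA-MB-231 and to 12 in the interaction, each from 3, and in no other fit. Between peptides in MDA-MB-231 the count was 2 to 4 in the other alternatives and 3 to 4 with 1 library left out, in the interaction 2 to 4 and 3 to 4, and between lines 19 to 32 and 25 with any library left out. In T47D it was 0 in all. The 19 came from requiring 10 counts in every library, which removes low members such as CLDN8 and TJP3, so that between peptides PPL took the place of TJP3. Among members past an adjusted p of 0.05, DSG2 between the lines changed sign, to -0.13 in IKVAV libraries alone, and it was not past that limit under upper quartile scaling and library size alone. The interactions of CLDN12, OCLN and PKP2 rose above an adjusted p of 0.05 in 7 to 10 alternatives each, while those of CTNNB1, CLDN3, CGN, EPCAM, DSC2 and CLDN4 fell below it in 1 to 4. The members' median log2 difference ranged from -0.35 to -0.11 between peptides in MDA-MB-231, from -0.05 to 0.03 in T47D, from -2.13 to -1.81 between lines and from -0.25 to -0.05 in the interaction. Of 1254 values of members not past that limit, 77 changed sign.

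With a replicate block, PPL joined the members called between peptides in MDA-MB-231 and in the interaction, giving 4 in each, and 22 and 9 members passed by adjusted p alone. Same-numbered libraries of a line correlated at -0.06 to 0.02 after their group means were removed. No pairing by number was thus seen, though groups of 2 or 3 libraries cannot exclude one. GFOGER replicate 3 of MDA-MB-231 has no IKVAV library of its number in the fit with a replicate block, and without that library the count by adjusted p was also 22. This count was 10 without IKVAV replicate 2 and 13 without IKVAV replicate 1, the library of MDA-MB-231 in the lower set of RPKM totals. The T47D GFOGER libraries and IKVAV replicate 3 share that set, and a within-set comparison there, resting on 1 IKVAV library, was not fitted. The fit with the totals as a term called 0 in T47D. The fit without robust estimation, chosen after seeing the data, gave the main counts. With 2 libraries of MDA-MB-231 in IKVAV, leaving 1 out assumes that the other varies like the GFOGER libraries. Levels under 3 counts in a library limit CLDN8, CLDN9, MARVELD3, CRB3 and PKP1.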
